A study of Mus musculus with 15 samples.

Results

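Fatty acids are the main fuel of the adult heart, and the 47 genes described here cover their route through the cell. They act in uptake, activation, entry into mitochondria, beta-oxidation and storage in lipid droplets. The genes were chosen by name, with earlier results of these data known. They were found by symbol in a table of 47069 genes, where all 47 were measured. The smallest count of any of them in any library was 233, so all 47 passed the filter on low counts in every comparison, and all are accounted for here. They were read in 15 mRNA libraries of left ventricle tissue, all from C57BL/6 mice, with 5 biological replicates in each of 3 groups. The rHCI hearts had a myocardial infarction and, 7 days later, an injection into the heart muscle of rHCI, a hydrogel of recombinant human collagen type I. The PBS hearts had the same infarction and the same injection schedule with phosphate-buffered saline. Both were collected 2 days after that injection. The sham hearts were operated on without infarction, were 10 weeks old, matched in age, and received no treatment. A difference from sham therefore holds infarction and injection together, and these cannot be told apart. The labels do not say whether the sampled left ventricle was scar, border zone or remote muscle.

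As background, lipoprotein lipase frees fatty acids from circulating triglyceride, membrane carriers and fatty acid binding proteins bring them into the cardiomyocyte, and acyl-CoA synthetases trap them as acyl-CoA. The carnitine shuttle then carries the acyl groups into the mitochondrion, a step that malonyl-CoA inhibits, and beta-oxidation shortens them and passes electrons to the respiratory chain. Surplus acyl-CoA is stored as triglyceride in lipid droplets coated by perilipins, from which lipases release it again. Several of these steps have a muscle-type and a more widely expressed isoform, such as the carnitine palmitoyltransferases Cpt1b and Cpt1a.

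Most of the pathway was lower in infarcted hearts, with a small set of genes that moved the other way. In rHCI hearts against sham hearts, 36 of the 47 genes were lower, 5 were higher and 6 did not pass the test (edgeR's quasi-likelihood test, Benjamini-Hochberg adjusted p under 0.05 over all genes tested). Of all 16076 genes tested in that comparison, 29.7% were lower and 34.1% were higher. In PBS hearts against sham hearts, 38 were lower, 5 were higher and 4 did not pass, where 34.9% of 16207 tested genes were lower and 36.5% were higher. No overlap with sham hearts was found below them for 32 of the 47 genes in rHCI hearts (22.4% of all tested genes) and 35 in PBS hearts (27.2%), and above them for 4 in rHCI hearts (27% of all tested genes) and 5 in PBS hearts (31.5%). The median log2 fold change of the 47 genes was -0.62 in rHCI hearts and -0.78 in PBS hearts, where that of all tested genes was 0.00 in rHCI hearts and -0.01 in PBS hearts. The same 5 genes were higher in both comparisons, which share the sham libraries, and these were Acsl4, Acsl5, Cpt1a, Ucp2 and Plin2. Between rHCI and PBS hearts none of the 47 genes passed. Fewer cells of a type and less RNA per cell cannot be told apart in these bulk samples.

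The libraries held 32978702 to 103356830 counts. The tissue label was met by cardiomyocyte genes at high level, with the cardiac troponin gene Tnnt2 at 5432 ± 874 CPM in rHCI hearts and 4944 ± 450.1 CPM in PBS hearts, against 8005 ± 642 CPM in sham hearts (counts scaled to a common library total, mean ± SD, n = 5 each). Cell type markers moved with infarction as well. Of 12 cardiomyocyte markers, 10 were lower in each infarcted group, and their summed level was 32452 to 44659 CPM in rHCI hearts and 32905 to 42013 CPM in PBS hearts, against 48779 to 55425 CPM in sham hearts. All 10 macrophage markers were higher in both, with sums of 818 to 1038 CPM in rHCI hearts and 829.6 to 1111 CPM in PBS hearts, against 240.1 to 297 CPM in sham hearts. All 8 fibroblast markers were higher. One library, PBS 6, held RNA of a lung gene, with 44.8 CPM of Sftpc. Without it the counts of fatty acid genes in PBS hearts against sham hearts remained 38 lower and 5 higher. What part these cell types had in the levels of the 47 genes was not tested.

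Set in order of level per kilobase of merged exon sequence, the binding protein Fabp3 stood first in every group, at 1959 CPM per kilobase in rHCI hearts and 1854 in PBS hearts, against 2756 in sham hearts. Lpl followed in sham hearts at 764 CPM per kilobase, then Acaa2 at 657, Acadl at 650.3, Ech1 at 562 and Cd36 at 554. At the other end, Acsl6 had 1.49 and Acaca 1.03 CPM per kilobase in sham hearts. Merged exons can be longer than the longest transcript, as for Acaca (17074 against 9513 bases), so this order is approximate. Summed over the 47 genes, the level was 20365 ± 3461 CPM in rHCI hearts and 18531 ± 2421 CPM in PBS hearts, against 32287 ± 1793 CPM in sham hearts.

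**Figure D1:**
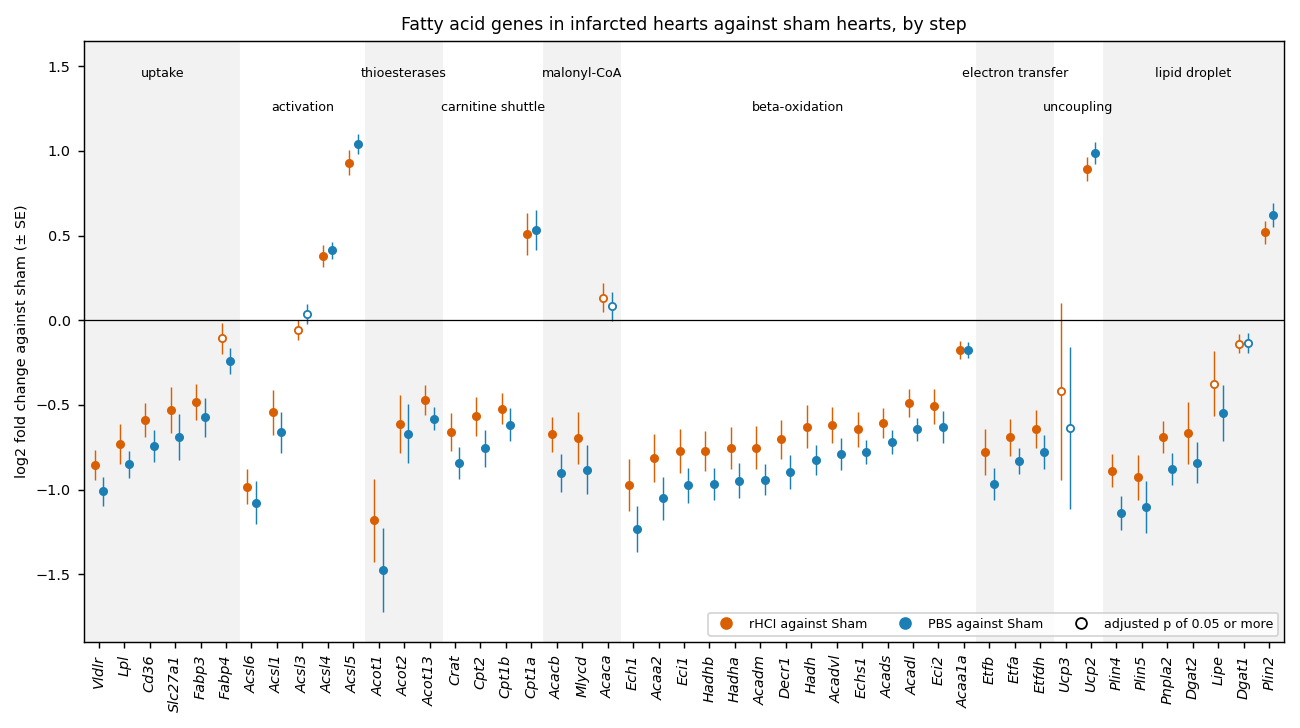
Log2 fold change against sham hearts, with its standard error, of each of the 47 genes, grouped by step, for rHCI hearts (orange) and PBS hearts (blue); open circles did not pass an adjusted p of 0.05. All 14 beta-oxidation genes lie below 0 in both groups (Acaa1a turned above 0 under 2 other scalings), while Acsl4, Acsl5, Cpt1a, Ucp2 and Plin2 lie above 0.

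Of the 6 uptake genes, 5 were lower in rHCI hearts, all but Fabp4, and all 6 were lower in PBS hearts, where Fabp4 turned above 0 both with library totals alone and when scaled to cardiomyocyte markers, and Fabp3 when scaled to cardiomyocyte markers. Their summed level was 8530.0 ± 1273 CPM in rHCI hearts and 7913 ± 847 CPM in PBS hearts, against 13429 ± 766 CPM in sham hearts, most of it from Lpl. Values by library are given here and below in the order rHCI 1, 3, 7, 11 and 13, PBS 2, 6, 9, 12 and 14, and Sham 16, 17, 18, 19 and 20. Vldlr, a receptor for triglyceride-rich lipoproteins, had 318, 254, 289, 351 and 314 CPM in rHCI hearts and 247, 276, 279.5, 248 and 335 CPM in PBS hearts, against 539, 498, 616, 526 and 605 CPM in sham hearts. The highest infarcted library stood well below the lowest sham library. Its log2 fold change was -0.85 ± 0.09 in rHCI hearts (adjusted p = 5.26e-06) and -1.01 ± 0.09 in PBS hearts (adjusted p = 2.89e-07). Lpl (chr8:68880491-68907448 of GRCm38), the lipase that frees fatty acids at the capillary wall, had 4361, 3814, 4505, 5519.7 and 5732 CPM in rHCI hearts and 4028, 4742, 4474, 4071 and 4925 CPM in PBS hearts, against 7807, 7275, 8353, 8316 and 8294 CPM in sham hearts. Again no infarcted library reached a sham library, although rHCI 11 and rHCI 13 were the highest of the infarcted hearts. Lpl's log2 fold change was -0.73 ± 0.12 in rHCI hearts (adjusted p = 0.000182) and -0.85 ± 0.08 in PBS hearts (adjusted p = 7.14e-07).

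Fabp3, the binding protein of heart muscle, had 1538, 1329, 1565, 1692 and 1937 CPM in rHCI hearts and 1543, 1644, 1354, 1205 and 1884 CPM in PBS hearts, against 2473, 2069, 1964, 2479 and 2357 CPM in sham hearts. The groups did not overlap, but rHCI 13 came close to Sham 18, the lowest sham library. Fabp3 had a log2 fold change of -0.48 ± 0.11 in rHCI hearts (adjusted p = 0.00164) and -0.57 ± 0.11 in PBS hearts (adjusted p = 0.000519). Its counts are uncertain, since 29.2% of the 50-base words of its longest transcript also occur in the pseudogene Fabp3-ps1. Fabp4, the binding protein of adipocytes, macrophages and capillary endothelium, had 343, 392, 379, 446 and 401 CPM in rHCI hearts and 349, 350.1, 340.4, 383 and 382 CPM in PBS hearts, against 475, 348, 397, 458 and 452 CPM in sham hearts. Here the groups overlapped, with Sham 17 as low as the PBS hearts and rHCI 11 and rHCI 13 above Sham 18. The log2 fold change of Fabp4 was -0.11 ± 0.09 in rHCI hearts (adjusted p = 0.326) and -0.24 ± 0.08 in PBS hearts (adjusted p = 0.0144). With only the 12 libraries that share a number in their descriptions, whose meaning is not given, it did not pass in PBS hearts (adjusted p = 0.0782). Of 10 adipocyte markers, 3 were lower in each infarcted group (Thrsp, Cidea and Adig), none was higher, 5 did not pass and 2, Lep and Ucp1, were too low to test. Of all tested genes, 29.7% were lower in rHCI hearts and 34.9% in PBS hearts. Among the 8 adipocyte markers tested, 5 log2 fold changes lay above 0 in rHCI hearts and 4 in PBS hearts, none passing. The summed level of the 10 was 33.7 to 60.8 CPM in rHCI hearts and 32.7 to 63.7 CPM in PBS hearts, against 43.7 to 68.9 CPM in sham hearts. Most of it came from Cidea and Thrsp, with means of 26.4 and 20.9 CPM in sham hearts, where the sum averaged 56.3 CPM. The adipokine gene Adipoq reached 2.66 CPM in rHCI hearts and 4.28 CPM in PBS hearts, against 2.23 CPM in sham hearts. Cfd reached 15.95 CPM in rHCI hearts and 19.01 CPM in PBS hearts, against 10.3 CPM in sham hearts. Of 9 endothelial markers, 3 were higher and 1 lower in rHCI hearts and 5 were higher and 1 lower in PBS hearts. Their sums were 891 to 1152 CPM in rHCI hearts and 956 to 1101 CPM in PBS hearts, against 884 to 1005 CPM in sham hearts, and macrophage markers were higher, as given above. What part these cells had in the level of Fabp4 was not tested. The other uptake genes were the membrane carriers Cd36 and Slc27a1, with log2 fold changes of -0.59 and -0.53 in rHCI hearts and -0.74 and -0.69 in PBS hearts.

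The 5 acyl-CoA synthetases, which activate fatty acids, split: Acsl1 and Acsl6 were lower, Acsl4 and Acsl5 were higher, and Acsl3 did not pass in either infarcted group. With library totals alone Acsl3 passed as higher in PBS hearts, at 0.31 (adjusted p = 0.000863), where the median of all tested genes was 0.27. Acsl1, the main synthetase of heart muscle, had 772, 581, 654, 875 and 1012 CPM in rHCI hearts and 749, 750.4, 651, 538 and 932 CPM in PBS hearts, against 1273, 1097, 1000.2, 1125 and 1226.2 CPM in sham hearts. The PBS libraries all lay below the sham libraries, while rHCI 13 overlapped with Sham 18. Acsl1's log2 fold change was -0.54 ± 0.13 in rHCI hearts (adjusted p = 0.00336) and -0.66 ± 0.12 in PBS hearts (adjusted p = 0.000279). Acsl6, better known from brain, had the lowest level of the 5 per kilobase of merged exon sequence in every group, while in sham hearts Acsl3 had the lowest CPM. That order depends on the length used, with merged exons of 9914 bases for Acsl6 and 4357 for Acsl3. Their longest transcripts have 5807 and 3950 bases. Acsl6 had 7.88, 6.26, 6.77, 8.08 and 8.10 CPM in rHCI hearts and 6.32, 7.74, 5.97, 5.81 and 9.18 CPM in PBS hearts, against 12.7, 14.2, 17.2, 13.3 and 16.5 CPM in sham hearts. All infarcted libraries were below all sham libraries, with a log2 fold change of -0.98 ± 0.10 in rHCI hearts (adjusted p = 5.99e-06) and -1.08 ± 0.13 in PBS hearts (adjusted p = 5.69e-06). The Acsl6 start window is shown because it was the single one, of the 38 genes of the pathway with an entry in the RefSeq table, to hold the element TCAAGGTCA, read by estrogen-related receptors, on either strand. The window runs from 250 bases before to 50 bases after the RefSeq start, at chr11:54303574-54303873 on the plus strand of GRCm38.p6, and the capitals mark the element, which lies on the minus strand. Of all 27025 genes with RefSeq start windows, 0.466% hold this element, as do 0.423% of all 32851 windows. The direct repeat with 1 spacer base that PPAR and RXR read was in none of the 38 genes' windows, searched on both strands. It was in those of 0.451% of all genes, and in 0.381% of all windows.
Acsl6 start window: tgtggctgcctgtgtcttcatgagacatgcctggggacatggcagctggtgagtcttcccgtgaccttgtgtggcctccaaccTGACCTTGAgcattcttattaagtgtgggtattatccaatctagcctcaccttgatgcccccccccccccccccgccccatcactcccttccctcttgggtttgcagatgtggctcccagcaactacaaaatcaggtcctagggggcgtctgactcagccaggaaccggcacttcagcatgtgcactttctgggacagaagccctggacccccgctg

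Acsl5 (chr19:55251938-55297720 of GRCm38), a synthetase of mitochondria and endoplasmic reticulum, had 36.9, 43.6, 39.4, 35.1 and 32.2 CPM in rHCI hearts and 38.8, 40.6, 41.2, 46.2 and 37.0 CPM in PBS hearts, against 19.8, 20.3, 20.1, 20.3 and 18.8 CPM in sham hearts. Every infarcted library was above every sham library, and PBS 12 and rHCI 3 were the highest of their groups. Acsl5's log2 fold change was 0.93 ± 0.08 in rHCI hearts (adjusted p = 7.54e-07) and 1.04 ± 0.06 in PBS hearts (adjusted p = 6.42e-09). Acsl4, which prefers arachidonic acid, had 30.0, 28.7, 25.9, 24.5 and 26.9 CPM in rHCI hearts and 27.4, 27.6, 28.3, 30.5 and 26.5 CPM in PBS hearts, against 22.2, 21.3, 21.9, 20.2 and 19.8 CPM in sham hearts. The rise was smaller but again free of overlap, at 0.38 ± 0.06 in rHCI hearts (adjusted p = 0.000259) and 0.41 ± 0.05 in PBS hearts (adjusted p = 9.86e-06) on the log2 scale. Counted in reads and not corrected for length, Acsl1 made up 90.3% ± 2.42 of the ACSL family in rHCI hearts and 89.2% ± 2.40 in PBS hearts, against 94.6% ± 0.64 in sham hearts (SD, n = 5 each).

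All 3 acyl-CoA thioesterases, which split acyl-CoA back to free fatty acid, were lower in both infarcted groups, though Acot13 turned to just above 0 in PBS hearts when scaled to cardiomyocyte markers. Acot1, the cytosolic enzyme, showed the largest decrease among the 47 genes in both comparisons, with 8.35, 4.62, 6.19, 11.98 and 11.4 CPM in rHCI hearts and 7.57, 6.65, 8.03, 3.20 and 10.04 CPM in PBS hearts, against 21.9, 13.7, 16.3, 19.1 and 26.0 CPM in sham hearts. No infarcted library reached the lowest sham library, although the sham hearts themselves spread widely. The log2 fold change of Acot1 was -1.18 ± 0.24 in rHCI hearts (adjusted p = 0.00107) and -1.47 ± 0.25 in PBS hearts (adjusted p = 0.000124). Acot2, its mitochondrial neighbour 15616 bases away on chromosome 12, had 74.2, 51.4, 58.4, 87.8 and 84.6 CPM in rHCI hearts and 77.5, 67.8, 63.3, 47.1 and 90.2 CPM in PBS hearts, against 129, 86.4, 85.3, 108 and 140.5 CPM in sham hearts. The groups overlapped here, since rHCI 11 and PBS 14 exceeded Sham 17 and Sham 18. Acot2 fell by less than Acot1, with a log2 fold change of -0.61 ± 0.17 in rHCI hearts (adjusted p = 0.00722) and -0.67 ± 0.17 in PBS hearts (adjusted p = 0.00336). The pair share sequence, with 33.6% of the 50-base words of Acot1 and 27.7% of those of Acot2 found in other genes of the family, so the split of reads between them is uncertain. The third member, Acot13, had log2 fold changes of -0.47 in rHCI hearts and -0.58 in PBS hearts.

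In the carnitine shuttle Cpt1b, Cpt2 and Crat were lower, and the liver-type carnitine palmitoyltransferase Cpt1a was higher. Cpt1b (chr15:89416405-89425863 of GRCm38), the muscle isoform of the outer-membrane enzyme, had 84.4, 66.0, 81.3, 90.7 and 97.4 CPM in rHCI hearts and 80.8, 84.2, 72.7, 63.0 and 96.6 CPM in PBS hearts, against 132, 116, 108, 126 and 126 CPM in sham hearts. The infarcted and sham hearts did not overlap. Cpt1b's log2 fold change was -0.52 ± 0.09 in rHCI hearts (adjusted p = 0.000336) and -0.62 ± 0.10 in PBS hearts (adjusted p = 7.27e-05), and 93.0% of its 50-base words also belong to the overlapping readthrough gene Gm44502 on the same strand. Cpt1a (chr19:3322334-3385733 of GRCm38), the isoform of liver and of many other cells, had 99.6, 99.2, 83.6, 95.9 and 106 CPM in rHCI hearts and 112, 89.2, 98.4, 96.2 and 101 CPM in PBS hearts, against 81.9, 62.3, 55.1, 57.2 and 86.6 CPM in sham hearts. All PBS libraries lay above all sham libraries, while rHCI 7 lay below Sham 20. On the log2 scale Cpt1a changed by 0.51 ± 0.12 in rHCI hearts (adjusted p = 0.00289) and 0.53 ± 0.12 in PBS hearts (adjusted p = 0.00138). Crat, which exchanges short acyl groups between CoA and carnitine, had 401, 306, 398, 453 and 521 CPM in rHCI hearts and 355, 408, 349, 289 and 447 CPM in PBS hearts, against 695, 647, 616, 676 and 681 CPM in sham hearts. Neither infarcted group overlapped with sham hearts, and the log2 fold change was -0.66 ± 0.11 in rHCI hearts (adjusted p = 0.000272) and -0.84 ± 0.10 in PBS hearts (adjusted p = 3.85e-06). For Cpt2, the inner-membrane enzyme that restores acyl-CoA in the matrix, the values were 158, 120.4, 147, 179 and 202 CPM in rHCI hearts and 141, 152, 131, 109 and 181 CPM in PBS hearts, against 253, 238, 213, 254 and 247 CPM in sham hearts. They too were free of overlap, with a log2 fold change of -0.57 ± 0.11 in rHCI hearts (adjusted p = 0.000877) and -0.76 ± 0.11 in PBS hearts (adjusted p = 3.20e-05).

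**Figure D2:**
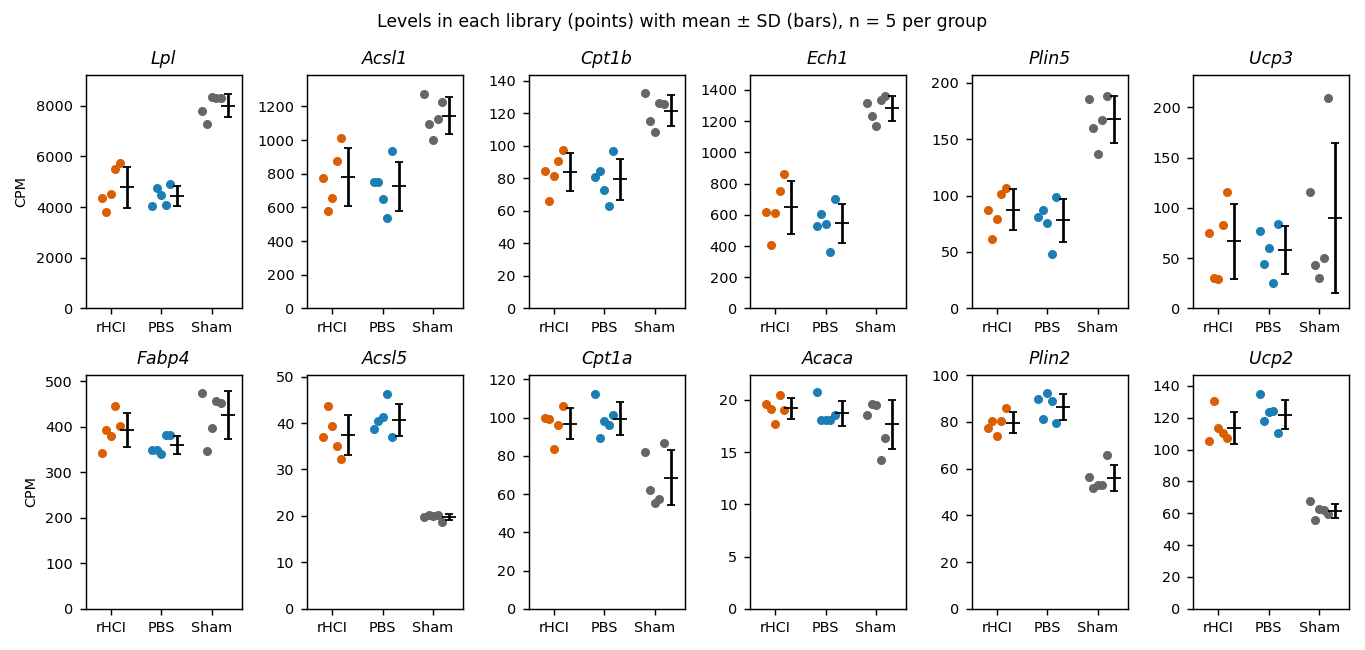
CPM of 12 genes in each library (points), with the mean and SD of each group (bars, n = 5), for rHCI, PBS and sham hearts; all axes start at 0. The infarcted hearts lie below the sham hearts for Lpl, Cpt1b, Ech1 and Plin5 and above them for Acsl5, Ucp2 and Plin2, while Ucp3, Fabp4 and Acaca overlap.

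Of the 3 genes that set malonyl-CoA, the inhibitor of Cpt1, Acacb and Mlycd were lower and Acaca did not pass. Acacb, the acetyl-CoA carboxylase that makes malonyl-CoA at the mitochondrial membrane, had 346, 293, 329, 413 and 399.6 CPM in rHCI hearts and 282, 304, 285, 257 and 404 CPM in PBS hearts, against 549, 508, 597, 532 and 675 CPM in sham hearts. Sham hearts were all higher than infarcted hearts, and PBS 14 was the highest PBS heart by a wide margin. Acacb's log2 fold change was -0.67 ± 0.10 in rHCI hearts (adjusted p = 0.000115) and -0.90 ± 0.11 in PBS hearts (adjusted p = 9.08e-06). Mlycd, the decarboxylase that removes malonyl-CoA, had 85.0, 59.0, 71.6, 97.4 and 104 CPM in rHCI hearts and 77.0, 78.5, 70.8, 51.9 and 92.2 CPM in PBS hearts, against 142, 112, 118, 134 and 175 CPM in sham hearts. Both the enzyme that makes it and the one that removes it were lower, Mlycd with a log2 fold change of -0.70 ± 0.15 in rHCI hearts (adjusted p = 0.00165) and -0.88 ± 0.14 in PBS hearts (adjusted p = 9.90e-05) and no overlap with sham hearts. Acaca, the carboxylase of fatty acid synthesis, had 19.6, 19.1, 17.7, 20.5 and 18.997 CPM in rHCI hearts and 20.8, 18.03, 18.1, 18.03 and 18.6 CPM in PBS hearts, against 18.5, 19.6, 19.5, 14.2 and 16.4 CPM in sham hearts. These ranges overlapped and the test was not passed, with a log2 fold change of 0.13 ± 0.09 in rHCI hearts (adjusted p = 0.193) and 0.08 ± 0.09 in PBS hearts (adjusted p = 0.407). With library totals alone Acaca passed as higher, at 0.35 in rHCI hearts (adjusted p = 0.00464) and 0.36 in PBS hearts (adjusted p = 0.00356). The median of all tested genes was then 0.22 in rHCI hearts and 0.27 in PBS hearts. Reads of Acaca are uncertain, since 52.6% of its 50-base words occur in the pseudogene Gm5182.

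Beta-oxidation was the largest step. All 14 genes passed as lower in both infarcted groups, Acaa1a turning above 0 under 2 other scalings, and for all 14 no infarcted library overlapped with a sham library. Summed over the 14 genes, the level was 7309 ± 1408 CPM in rHCI hearts and 6471 ± 991 CPM in PBS hearts, against 12075 ± 640.2 CPM in sham hearts. Ech1 (chr7:28825217-28832247 of GRCm38), an isomerase for unsaturated fatty acids, showed the largest decrease of the step, with 616, 407, 609, 751 and 861 CPM in rHCI hearts and 528, 606, 539, 359 and 700.4 CPM in PBS hearts, against 1314, 1234, 1168, 1339 and 1362 CPM in sham hearts. PBS 12 and rHCI 3 were the lowest infarcted hearts, and the highest, rHCI 13, was still below every sham heart. Ech1's log2 fold change was -0.97 ± 0.16 in rHCI hearts (adjusted p = 0.000172) and -1.23 ± 0.14 in PBS hearts (adjusted p = 2.99e-06). Acaa2, the thiolase of the mitochondrial spiral, had 551, 377, 513, 629.9 and 741 CPM in rHCI hearts and 483, 522, 455, 335 and 612 CPM in PBS hearts, against 1076, 937, 888, 1030.3 and 1049 CPM in sham hearts. Its order of libraries was like that of Ech1, with a log2 fold change of -0.81 ± 0.14 in rHCI hearts (adjusted p = 0.000353) and -1.05 ± 0.13 in PBS hearts (adjusted p = 6.81e-06). Acaa1a, the peroxisomal thiolase, moved least, with a log2 fold change of -0.18 ± 0.05 in rHCI hearts (adjusted p = 0.0104) and -0.18 ± 0.05 in PBS hearts (adjusted p = 0.00524), and 34.0% of its 50-base words are shared with Acaa1b. With library totals alone the log2 fold change of Acaa1a was 0.0431 in rHCI hearts and 0.0975 in PBS hearts. Scaled to cardiomyocyte markers it was 0.28 in rHCI hearts and 0.42 in PBS hearts, both passing as higher. It did not pass when a change of more than 1.2-fold was asked for.

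The 11 other beta-oxidation genes had log2 fold changes of -0.77 to -0.49 in rHCI hearts and -0.98 to -0.63 in PBS hearts. Among the acyl-CoA dehydrogenases, which open each round for chains of different length, the PBS log2 fold change was -0.94 for the medium-chain gene Acadm, -0.79 for the very-long-chain gene Acadvl, -0.72 for the short-chain gene Acads and -0.64 for the long-chain gene Acadl. The trifunctional protein is built from Hadha and Hadhb, which are divergent neighbours on chromosome 5. Their log2 fold changes were close, at -0.75 and -0.77 in rHCI hearts and -0.95 and -0.97 in PBS hearts. Hadh and Echs1, which act on shorter chains, had -0.82 and -0.78 in PBS hearts. The auxiliary enzymes for unsaturated chains, Decr1, Eci1 and Eci2, had -0.90, -0.98 and -0.63 in PBS hearts. Reads of Hadhb are uncertain, with 62.4% of its 50-base words found also in pseudogenes. The region between Hadha and Hadhb is shown because both subunits start from it. In it 85 bases, in capitals, separate the annotated start of Hadha, which runs on the minus strand, from that of Hadhb on the plus strand. The RefSeq start window of Hadhb lies at chr5:30155003-30155302 on the plus strand of GRCm38.p6, has 60.7% G and C, and overlaps with that of Hadha by 228 bases.
Hadhb start window: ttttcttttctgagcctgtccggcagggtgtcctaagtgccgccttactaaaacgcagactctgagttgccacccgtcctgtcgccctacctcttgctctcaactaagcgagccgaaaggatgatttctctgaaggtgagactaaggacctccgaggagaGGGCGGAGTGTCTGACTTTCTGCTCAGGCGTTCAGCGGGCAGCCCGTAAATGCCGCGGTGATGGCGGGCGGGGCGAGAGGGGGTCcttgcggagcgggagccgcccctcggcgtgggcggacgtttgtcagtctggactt

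All 3 genes that carry electrons from beta-oxidation to the respiratory chain were lower in both infarcted groups, without overlap. Etfb, a subunit of the electron transfer flavoprotein, had 116, 87.1, 114, 146 and 165 CPM in rHCI hearts and 111, 119.8, 107, 86.7 and 132 CPM in PBS hearts, against 225, 197, 203, 223 and 237 CPM in sham hearts. For its partner subunit Etfa the values were 456, 346, 417, 505 and 570.3 CPM in rHCI hearts and 421, 448, 397, 351 and 479.9 CPM in PBS hearts, against 768, 697, 744, 749 and 772 CPM in sham hearts. In both genes rHCI 13 and PBS 14 were the highest of their groups and rHCI 3 and PBS 12 the lowest. The log2 fold change was -0.78 ± 0.14 in rHCI hearts (adjusted p = 0.000366) and -0.97 ± 0.09 in PBS hearts (adjusted p = 1.07e-06) for Etfb, and -0.69 ± 0.11 in rHCI hearts (adjusted p = 0.000159) and -0.83 ± 0.08 in PBS hearts (adjusted p = 5.13e-07) for Etfa. Etfdh, the oxidoreductase that passes the electrons to ubiquinone, had log2 fold changes of -0.64 in rHCI hearts and -0.78 in PBS hearts. Of the 50-base words of Etfb, 67.3% also belong to the overlapping gene Gm45233.

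The uncoupling proteins, carriers of the inner mitochondrial membrane, differed from one another. Ucp2, the widely expressed form, had 105, 131, 114, 111 and 107 CPM in rHCI hearts and 135, 118, 123, 124 and 110.4 CPM in PBS hearts, against 67.9, 55.7, 62.9, 62.2 and 59.3 CPM in sham hearts. Every infarcted heart was above every sham heart, with a log2 fold change of 0.89 ± 0.07 in rHCI hearts (adjusted p = 5.29e-07) and 0.99 ± 0.07 in PBS hearts (adjusted p = 2.98e-08). Ucp3, the muscle form and its neighbour 6904 bases away on chromosome 7, had 74.99, 30.5, 29.0, 83.1 and 115 CPM in rHCI hearts and 77.1, 44.0, 59.8, 24.9 and 84.1 CPM in PBS hearts, against 115, 43.4, 30.3, 49.9 and 209.6 CPM in sham hearts. The sham hearts alone ranged more widely than both infarcted groups, Sham 16 and Sham 20 being high and the other three low. Ucp3 did not pass, with a log2 fold change of -0.42 ± 0.52 in rHCI hearts (adjusted p = 0.499) and -0.64 ± 0.48 in PBS hearts (adjusted p = 0.245). Without Sham 20 the values were 0.16 in rHCI hearts and -0.06 in PBS hearts. Its coefficient of variation was the highest of the 47 genes in every group, at 55.4% in rHCI hearts and 41.8% in PBS hearts, against 83.2% in sham hearts. The median over the 47 genes was 17.4% in rHCI hearts, 15.2% in PBS hearts and 7.66% in sham hearts.

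Of the 7 lipid droplet genes, 4 were lower in rHCI hearts and 5 in PBS hearts, and Plin2 was higher in both. Plin4 and Plin5 are perilipins of the droplet surface that lie 1797 bases apart on chromosome 17. Plin5, which tethers droplets to mitochondria in oxidative muscle, had 87.3, 61.5, 79.6, 102 and 107 CPM in rHCI hearts and 81.1, 87.0, 75.5, 48.1 and 99.1 CPM in PBS hearts, against 185, 160.1, 137, 167 and 188 CPM in sham hearts. Plin4, found on droplets of muscle and fat, had 147, 129.9, 153, 181 and 178 CPM in rHCI hearts and 119.5, 142, 129.7, 113 and 165 CPM in PBS hearts, against 300.5, 271, 311, 254 and 334 CPM in sham hearts. For both, all infarcted hearts were below all sham hearts. The log2 fold change of Plin5 was -0.93 ± 0.13 in rHCI hearts (adjusted p = 8.15e-05) and -1.10 ± 0.15 in PBS hearts (adjusted p = 2.68e-05), and that of Plin4 was -0.89 ± 0.10 in rHCI hearts (adjusted p = 8.66e-06) and -1.14 ± 0.10 in PBS hearts (adjusted p = 3.67e-07). Plin2, the perilipin of most other cells, had 77.3, 80.5, 74.2, 80.6 and 86.0 CPM in rHCI hearts and 89.9, 81.3, 92.4, 89.1 and 79.4 CPM in PBS hearts, against 56.5, 51.7, 53.2, 53.1 and 65.8 CPM in sham hearts. It was higher in every infarcted library than in any sham library, with a log2 fold change of 0.52 ± 0.07 in rHCI hearts (adjusted p = 3.28e-05) and 0.62 ± 0.07 in PBS hearts (adjusted p = 3.56e-06).

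Dgat2 and Dgat1 make the last bond of triglyceride. Dgat2 had 237, 193, 250.4, 304 and 445 CPM in rHCI hearts and 243, 275, 229.6, 196 and 334 CPM in PBS hearts, against 502, 453, 432, 395 and 504 CPM in sham hearts. PBS hearts did not overlap with sham hearts, but rHCI 13 lay among the sham values. Dgat2's log2 fold change was -0.67 ± 0.18 in rHCI hearts (adjusted p = 0.00634) and -0.84 ± 0.12 in PBS hearts (adjusted p = 3.15e-05). For Dgat1 the values were 16.02, 15.4, 15.98, 15.9 and 16.3 CPM in rHCI hearts and 16.4, 17.1, 15.2, 15.8 and 16.1 CPM in PBS hearts, against 18.9, 18.2, 18.7, 15.9 and 16.6 CPM in sham hearts. They overlapped, and Dgat1 just missed the threshold with a log2 fold change of -0.14 ± 0.06 in rHCI hearts (adjusted p = 0.0555) and -0.13 ± 0.06 in PBS hearts (adjusted p = 0.0575). It passed with RLE factors in both comparisons (adjusted p = 0.0316 in rHCI hearts and 0.0478 in PBS hearts). Dgat1 also passed without Sham 19 (adjusted p = 0.0187 in rHCI hearts and 0.0180 in PBS hearts) and without Sham 20 (adjusted p = 0.0351 in rHCI hearts and 0.0336 in PBS hearts). In rHCI hearts it passed without rHCI 13 as well (adjusted p = 0.0490). With library totals alone its log2 fold change was above 0, at 0.0827 in rHCI hearts and 0.142 in PBS hearts, neither passing. Of the 2 lipases that empty the droplet, Pnpla2, the triglyceride lipase, had log2 fold changes of -0.69 in rHCI hearts and -0.88 in PBS hearts, both past the threshold. Lipe, the hormone-sensitive lipase, had -0.37 ± 0.19 in rHCI hearts (adjusted p = 0.109) and -0.55 ± 0.16 in PBS hearts (adjusted p = 0.00909), and passed in PBS hearts alone. With library totals alone Lipe did not pass in PBS hearts either, at -0.27 (adjusted p = 0.130), and it turned above 0 in both groups when scaled to cardiomyocyte markers.

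The balance between paired isoforms was compared within each library, where the scaling of libraries has no part. A ratio in bulk tissue does not tell cell types apart, and their part in it was not tested. For 8 pairs the log2 ratio of CPM was compared by a two-sided exact permutation test over libraries, with p adjusted over the 24 tests. With 5 libraries a side the smallest p these arrangements can give is 0.00794. After adjustment the smallest was 0.0147, a value that depends on how many of the 24 tests reached that p. Ratios are of reads, not corrected for length. The ratio of Plin2 to Plin5 was 0.885, 1.31, 0.932, 0.792 and 0.806 in rHCI hearts and 1.11, 0.934, 1.224, 1.85 and 0.801 in PBS hearts, against 0.305, 0.323, 0.389, 0.319 and 0.349 in sham hearts. All infarcted ratios exceeded all sham ratios. This followed from the values above, where every infarcted library was above sham hearts for Plin2 and below them for Plin5. The p-value was therefore fixed in advance at its smallest value and adds no support. The log2 difference from sham hearts was 1.47 in rHCI hearts and 1.76 in PBS hearts (both adjusted p = 0.0147). For Cpt1a to Cpt1b the ratio was 1.18, 1.502, 1.03, 1.057 and 1.09 in rHCI hearts and 1.39, 1.059, 1.35, 1.53 and 1.05 in PBS hearts, against 0.620, 0.539, 0.509, 0.453 and 0.689 in sham hearts. In every infarcted heart the liver-type transcript had more reads than the muscle-type one, and in every sham heart fewer. Per kilobase of merged exon sequence, however, the mean of Cpt1b stood above that of Cpt1a in every group. Cpt1b had 24.9 CPM per kilobase in rHCI hearts, 23.56 in PBS hearts and 36.07 in sham hearts. Cpt1a had 12.67 in rHCI hearts, 13.02 in PBS hearts and 8.98 in sham hearts. The reads of Cpt1b are uncertain too, given the words it shares with Gm44502. The log2 difference of the Cpt1a to Cpt1b ratio was 1.061 in rHCI hearts and 1.18 in PBS hearts (both adjusted p = 0.0147). In both groups this p-value too was fixed in advance, since the single-gene ranges above left infarcted and sham ratios no room to overlap.

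Acsl4 to Acsl1 averaged 0.0365 ± 0.00943 in rHCI hearts and 0.0404 ± 0.0106 in PBS hearts, against 0.0186 ± 0.00218 in sham hearts. For Acaca to Acacb the ratio averaged 0.0546 ± 0.00699 in rHCI hearts and 0.0626 ± 0.0109 in PBS hearts, against 0.0312 ± 0.00570 in sham hearts. The ratio of Fabp4 to Fabp3 averaged 0.246 ± 0.0346 in rHCI hearts and 0.242 ± 0.0459 in PBS hearts, against 0.188 ± 0.0126 in sham hearts. All 3 were higher in both infarcted groups without overlap (each adjusted p = 0.0147). For Acsl4 to Acsl1 and for Acaca to Acacb this was fixed in advance in both groups. There the single-gene ranges left infarcted and sham ratios no room to overlap, so these p-values add no support. The ratio of Acot1 to Acot2 was lower, at 0.116 ± 0.0197 in rHCI hearts and 0.1005 ± 0.0217 in PBS hearts, against 0.177 ± 0.0128 in sham hearts (each adjusted p = 0.0147). Dgat2 to Dgat1 averaged 17.9 ± 5.76 in rHCI hearts and 15.8 ± 3.05 in PBS hearts, against 25.9 ± 2.73 in sham hearts, and passed in PBS hearts (adjusted p = 0.0147) but not in rHCI hearts (adjusted p = 0.068), where it passed without rHCI 13 (adjusted p = 0.0272). Ucp2 to Ucp3 did not pass, with log2 differences of 1.14 in rHCI hearts (adjusted p = 0.179) and 1.37 in PBS hearts (adjusted p = 0.0762), and passed in PBS hearts without Sham 18 (adjusted p = 0.0272). With only the 12 libraries that share a number in their descriptions, no ratio passed after adjustment, where the smallest adjusted p was 0.0528. Fewer libraries raise the smallest p that can be reached, so this cannot show whether the shared number mattered.

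**Figure D3:**
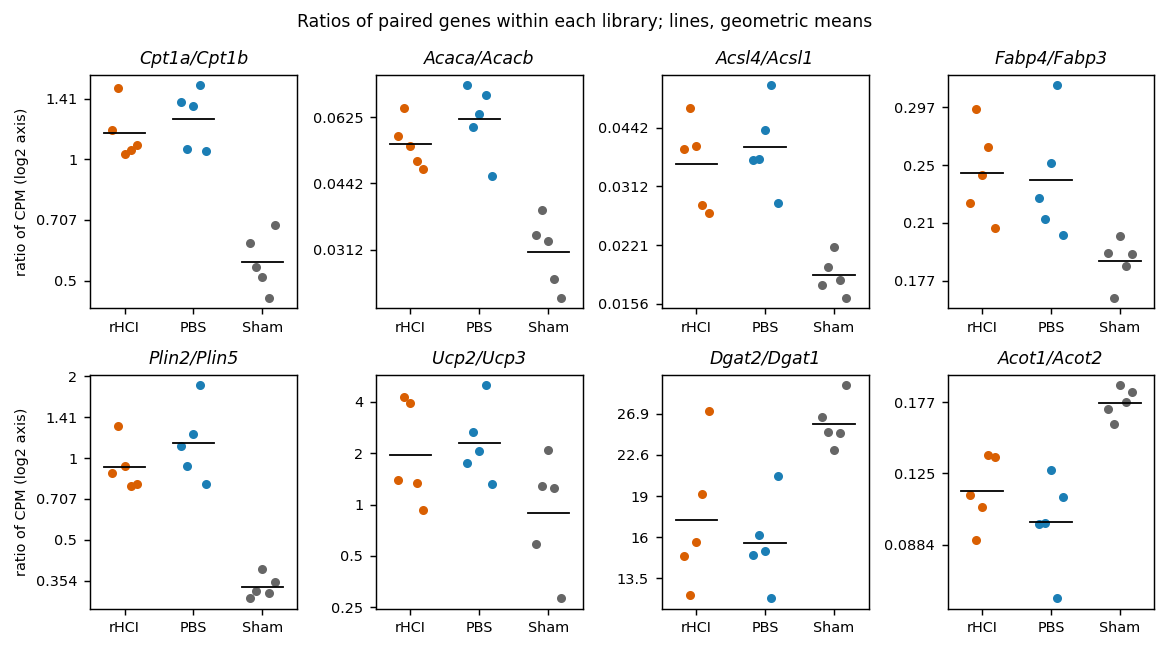
Ratio of CPM of paired genes in each library (points, log2 axis) with the geometric mean of each group (lines), for rHCI, PBS and sham hearts. Infarcted and sham hearts do not overlap in 6 of the 8 pairs, the exceptions being Ucp2/Ucp3 and Dgat2/Dgat1.

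Scaled to cardiomyocyte genes instead of all genes, most oxidation genes were still lower, and more of the other genes were higher. With each library scaled to the mean log2 level of the 12 cardiomyocyte markers, the median log2 fold change of all tested genes was 0.46 in rHCI hearts and 0.59 in PBS hearts, and values are read against that shift. Of the 47 genes, 25 were lower, 10 higher and 12 not passed in rHCI hearts, and 26 were lower, 10 higher and 11 not passed in PBS hearts. Of all tested genes on this scale, 3.77% were lower and 65.1% higher in rHCI hearts, and 3.94% were lower and 73.4% higher in PBS hearts. On this scale, 11 of 14 beta-oxidation genes in rHCI hearts and 10 of 14 in PBS hearts were lower, as were all 3 electron transfer genes in both. Acot1, at -0.75 in rHCI hearts and -0.88 in PBS hearts, and Ech1, at -0.55 in rHCI hearts and -0.66 in PBS hearts, were the lowest of the 47. Fabp3, Slc27a1, Acsl1, Acot2, Acot13, Cpt1b, Acadl, Eci2, Lipe and Ucp3 did not pass in either group, with log2 fold changes between -0.17 and 0.07. Beside the 5 genes higher under the main scaling, Fabp4, Acsl3, Acaca, Acaa1a and Dgat1 then passed as higher. The 12 markers were themselves unequal in change, with Ttn at -0.83 in rHCI hearts and -1.19 in PBS hearts and Actc1 at -0.08 in rHCI hearts and -0.18 in PBS hearts under the main scaling.

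**Figure D4:**
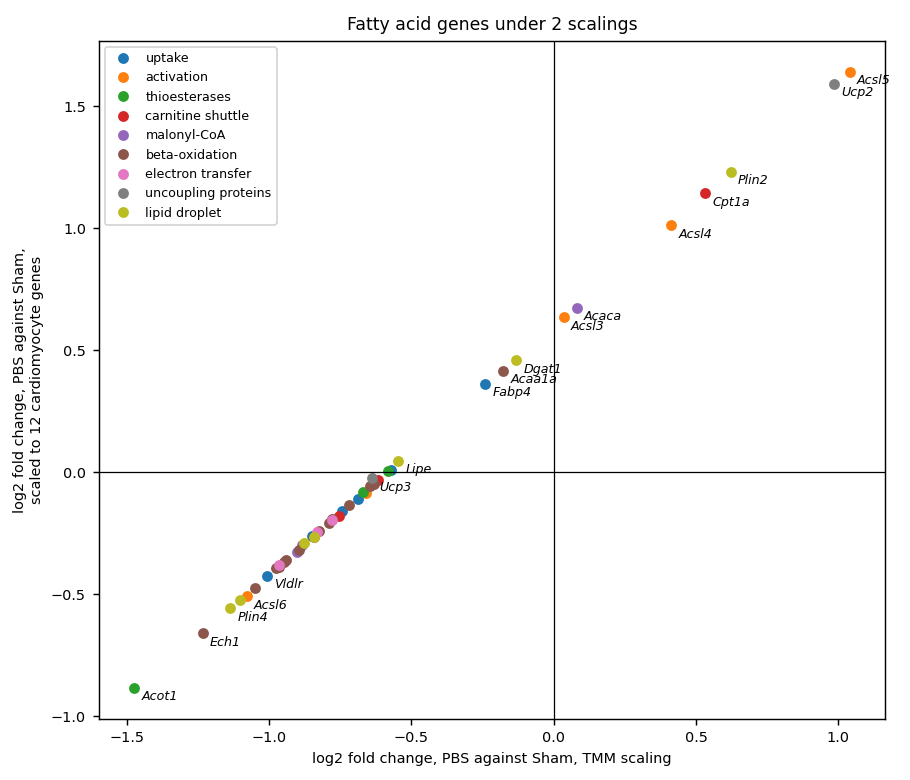
Log2 fold change in PBS hearts against sham hearts of the 47 genes under the main scaling (horizontal) and scaled to 12 cardiomyocyte genes (vertical), coloured by step. Ech1 and Acot1 are below 0 on both axes, Acsl5, Ucp2, Plin2, Cpt1a and Acsl4 are above 0 on both, as are Acsl3 and Acaca, and Fabp3, Fabp4, Acot13, Acaa1a, Lipe and Dgat1 change sign.

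The infarcted hearts also differed among themselves in a shared order. Among the 38 genes lower in PBS hearts, rHCI 3 was the lowest rHCI heart for 37 and rHCI 13 the highest for 31, and PBS 12 was the lowest PBS heart for 35 and PBS 14 the highest for 36. The same libraries had the lowest and highest cardiomyocyte sums, at 32452 CPM in rHCI 3 and 44659 CPM in rHCI 13, and at 32905 CPM in PBS 12 and 42013 CPM in PBS 14. Macrophage sums were 907, 1038, 981, 818 and 907 CPM in rHCI hearts and 1111, 1013, 1062, 1086 and 829.6 CPM in PBS hearts. They were highest in rHCI 3 and PBS 2 and lowest in rHCI 11 and PBS 14. The part of these in the order was not tested. In sham hearts the extremes were less one-sided, Sham 20 being the highest for 20 of the 38 genes and Sham 17 the lowest for 17.

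The effect of the hydrogel was addressed by comparing rHCI hearts with PBS hearts, which had the same infarction and injection. None of the 47 genes passed, and none of the 16383 genes tested did (edgeR, 0% higher and 0% lower). At an unadjusted p under 0.05 the count was 0 of the 47 and 579 of all genes, and DESeq2 called 3 genes higher and 3 lower, none of them among the 47. All 47 genes overlapped between the groups, where 0.165% of all tested genes lay higher and 0.366% lower without overlap. The point estimates leaned one way, with 39 of 47 log2 fold changes above 0 and a median of 0.14. Of all tested genes 49.6% lay below 0, with a median of 0.00. Those of the 12 cardiomyocyte markers were all above 0 with a median of 0.11. Scaled to the cardiomyocyte markers, 14 of the 47 genes changed sign. Their median was then 0.01, where that of all tested genes was -0.12. Members of a pathway measured in the same libraries are not independent, so this lean has no test here.

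The smallest unadjusted p-values between rHCI and PBS hearts belonged to Plin4, Plin2 and Fabp4, whose values by library are given above. Plin4 averaged 158 ± 21.4 CPM in rHCI hearts and 134 ± 20.5 CPM in PBS hearts, a log2 fold change of 0.24 ± 0.11 (adjusted p = 0.871). For Plin2 the means were 79.7 ± 4.42 CPM in rHCI hearts and 86.4 ± 5.74 CPM in PBS hearts, a log2 fold change of -0.11 ± 0.06 (adjusted p = 0.871). Fabp4 averaged 393 ± 37.3 CPM in rHCI hearts and 361 ± 19.99 CPM in PBS hearts, a log2 fold change of 0.12 ± 0.07 (adjusted p = 0.871). For 42 of the 47 genes the 95% interval of the log2 fold change lay within a 1.5-fold change in either direction. The widest was that of Ucp3, from -0.70 to 1.10, and without it the bounds ran from -0.40 to 0.95. The intervals of Acot1, Ech1, Acaa2, Dgat2 and Ucp3 reached past a 1.5-fold change. None of the 8 isoform ratios passed either, with adjusted p-values of 0.325 to 0.841 (two-sided exact permutation test).

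**Figure D5:**
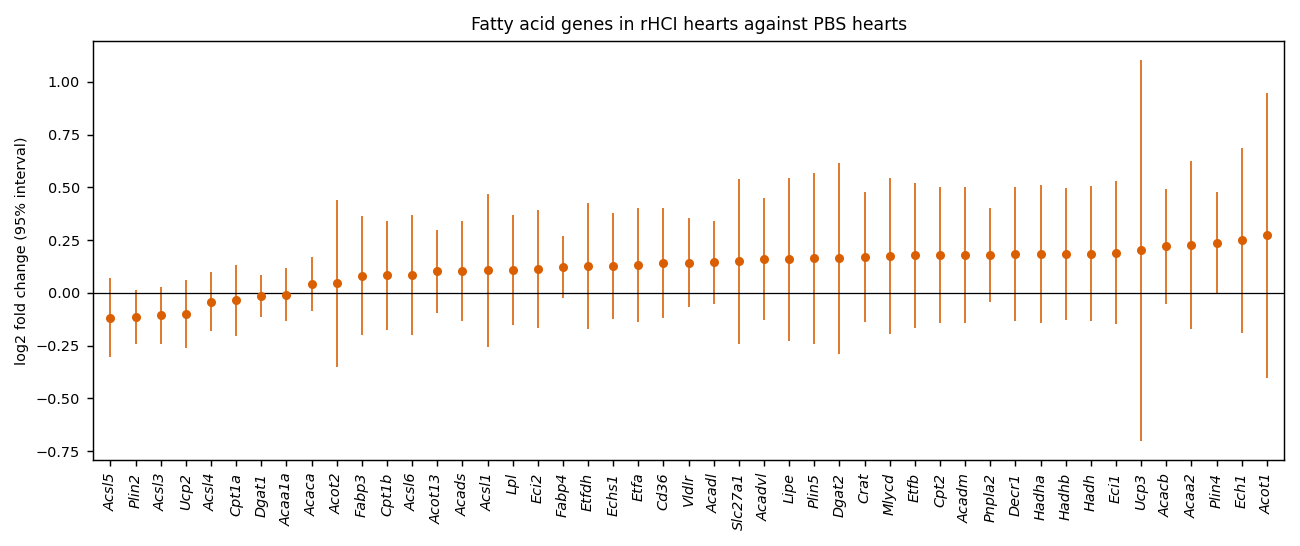
Log2 fold change in rHCI hearts against PBS hearts, with its 95% interval, of the 47 genes in ascending order. All 47 intervals include 0, and 39 point estimates lie above 0.

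Genes of the pathway outside the 47 were read from 6 further lists, where 29.7% of all tested genes were lower in rHCI hearts and 34.9% in PBS hearts. Of 14 other genes of mitochondrial oxidation, 11 were lower and 1 higher in rHCI hearts and 13 were lower and 1 higher in PBS hearts. The largest changes were those of the dehydrogenase gene Acad12 (-0.85 ± 0.11 in rHCI hearts (adjusted p = 3.56e-05) and -1.01 ± 0.09 in PBS hearts (adjusted p = 2.96e-07)) and of Hsd17b10 (-0.65 ± 0.11 in rHCI hearts (adjusted p = 0.000208) and -0.80 ± 0.08 in PBS hearts (adjusted p = 9.20e-07)), which oxidises branched and short chains. Of 15 peroxisomal genes tested, 8 were lower and 2 higher in rHCI hearts and 9 were lower and 2 higher in PBS hearts. They were led by Phyh (-0.65 in rHCI hearts and -0.79 in PBS hearts), the hydroxylase of phytanic acid, and Pex11a (-0.64 in rHCI hearts and -0.76 in PBS hearts), which divides peroxisomes. Of 18 other lipid droplet genes, 11 were lower and 2 higher in rHCI hearts and 10 were lower and 2 higher in PBS hearts. First among them were Fitm2 (-0.80 in rHCI hearts and -0.98 in PBS hearts), which helps droplets to form, and Lpin1 (-0.69 in rHCI hearts and -0.93 in PBS hearts), a phosphatidate phosphatase.

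Of 9 other uptake genes, 6 were higher in each infarcted group, where 34.1% of all tested genes were higher in rHCI hearts and 36.5% in PBS hearts. Of the rest, 2 were lower in rHCI hearts and 1 in PBS hearts, where 29.7% and 34.9% of all tested genes were lower. Gpihbp1, also among the endothelial markers, was lower in both, at -0.59 in rHCI hearts and -0.70 in PBS hearts. The largest changes were those of the transporter Slc27a6, at 0.851 ± 0.126 CPM in rHCI hearts and 1.02 ± 0.222 CPM in PBS hearts, against 0.162 ± 0.0197 CPM in sham hearts, and of Slc27a3, at 4.45 ± 1.05 CPM in rHCI hearts and 5.45 ± 0.748 CPM in PBS hearts, against 0.915 ± 0.137 CPM in sham hearts. Among genes of fatty acid synthesis, 5 of 13 were higher and 4 lower in each infarcted group, shares near those of all tested genes. The desaturase Scd2 (1.19 in rHCI hearts and 1.29 in PBS hearts) and the elongase Elovl1 (0.998 in rHCI hearts and 1.11 in PBS hearts) changed most. The fatty acid synthase gene Fasn did not pass, at -0.00 in rHCI hearts and -0.00 in PBS hearts. Of 14 regulators of the pathway 10 were lower in rHCI hearts and 14 in PBS hearts. Klf15 (-1.61 in rHCI hearts and -1.76 in PBS hearts) and Ppara (-1.12 in rHCI hearts and -1.33 in PBS hearts), transcription factors of fatty acid metabolism, changed most.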

How the data were processed

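Stranded mRNA libraries were made from frozen left ventricle, per the labels' protocols. The authors deposited raw read counts, 1 column per library, with 0 columns left unmatched. Tools named in the submitters' processing notes are STAR, Trimmomatic, edgeR and Cufflinks, and builds are mm10 and GRCm38, without roles or versions. Which program counted reads, and with which strand setting and annotation, is not given in the sources used here, so overlapping and near-identical genes are uncertain. Of 47069 gene identifiers, 46574 are in GENCODE M21 of GRCm38, the source of positions and exon lengths, and start windows came from RefSeq.

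Each pair of groups was fitted with edgeR 4.0.16 in R 4.3.3 on its 10 libraries (filterByExpr, TMM, glmQLFit, glmQLFTest, two-sided, Benjamini-Hochberg, threshold 0.05). Log2 fold changes carry standard errors. CPM used TMM factors of all 15 libraries. Ratios of CPM had 0.01 CPM added to each gene and were tested by exact permutation (SciPy 1.17.1, 252 arrangements). The fits were tested on simulated data with known changes. Replicates were compared by a chi-square test per pair, whose lowest value was 11.3 per gene, so no library was a repeat of another. P-values judge a difference between groups against the spread between these libraries. Alternatives were DESeq2 1.42.0, other scalings and filters, 1 fit of all libraries, a number in the sample descriptions (its largest set alone, and as a covariate), and leaving out each replicate. That number, whose meaning is not given, is the same for 12 libraries, 4 of each group. The 47 genes, the lists and the ratios were chosen with earlier results of these data known. Genes with values by library are the 2 largest changes of each step in PBS hearts against sham hearts, those against their step, all ratio members, and the 3 smallest p-values between rHCI and PBS hearts; of each other list, the 2 largest changes that passed, with Fasn added after its values were seen.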

Additional observations from a re-analysis of the deposited data

Results flagged for a closer look

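Acaca, the acetyl-CoA carboxylase of fatty acid synthesis, was high in PBS 2, at 20.8 CPM where the other 4 PBS hearts had 18.03 to 18.6 CPM. Acaa1a, the peroxisomal thiolase, was high in Sham 20, at 82.7 CPM where the other 4 sham hearts had 75.9 to 77.5 CPM. In each case 1 library stood further from its group than Dixon's test allows for 5 samples. These were 2 of 141 groups of 5 examined, and chance alone flags about 1 in 20.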

How the results depend on the processing

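No paired analysis was possible because no replicate number occurs in more than 1 group. For the fatty acid genes, counts of lower calls stayed at 36 to 37 of 47 in rHCI hearts and 38 to 39 in PBS hearts when each replicate was left out in turn, and higher calls stayed at 5. Scaling moved the counts most. With library totals alone, 2128 of all genes were lower in rHCI hearts (4781 in the main analysis), and 8938 were higher and 2610 lower in PBS hearts (5921 and 5653 in the main analysis). The median of all genes was then 0.22 in rHCI hearts and 0.27 in PBS hearts. Log2 fold changes that turned were Fabp4 0.116, Acsl3 0.163, Acaa1a 0.0431 and Dgat1 0.0827 in rHCI hearts and Fabp4 0.0364, Acaa1a 0.0975 and Dgat1 0.142 in PBS hearts. Scaled to cardiomyocyte markers, 10466 genes were higher and 606 lower in rHCI hearts, 11893 higher and 639 lower in PBS hearts, and 10 fatty acid genes were higher in each. Those that turned were Fabp4 0.36, Acsl3 0.40, Acaa1a 0.28, Lipe 0.0678, Ucp3 0.00951 and Dgat1 0.32 in rHCI hearts and Fabp3 0.00907, Fabp4 0.36, Acot13 0.00673, Acaa1a 0.42, Lipe 0.0480 and Dgat1 0.46 in PBS hearts. Asking for more than a 1.2-fold change left 2144 genes lower in rHCI hearts and 3277 in PBS hearts. Between rHCI and PBS hearts DESeq2 called 3 genes higher and 3 lower, and leaving out 1 replicate gave 0 to 3 lower calls, 3 without rHCI 13.

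With only the 12 libraries that share a number the log2 ratio differences kept their sign but missed the threshold, at an adjusted p of 0.0528, since fewer libraries raise the smallest p: Cpt1a/Cpt1b 0.98 and 1.17, Acaca/Acacb 0.75 and 0.97, Acsl4/Acsl1 0.90 and 1.11, Fabp4/Fabp3 0.41 and 0.39, Plin2/Plin5 1.47 and 1.81 and Acot1/Acot2 -0.61 and -0.84, for rHCI and then PBS hearts, and Dgat2/Dgat1 -0.75 in PBS hearts. Leaving out 1 replicate moved Dgat2/Dgat1 in rHCI hearts between -0.75 and -0.47, passing without rHCI 13, and Ucp2/Ucp3 in PBS hearts between 0.95 and 1.67, passing without Sham 18. The causes were not tested. The smallest count of any of the 47 genes in a library was 233.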

Other observations

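The sham hearts with high Ucp3 were also high for Pdk4 and Angptl4, which were chosen after their values were seen. Pdk4, the kinase that restrains glucose oxidation, had 1290.3, 1307, 842, 1309.8 and 682 CPM in rHCI hearts and 981, 654, 1264, 970.3 and 923 CPM in PBS hearts, against 2335, 1019, 1134, 948 and 3549.8 CPM in sham hearts. Sham 16 and Sham 20 were the high libraries, as they were for Ucp3. Angptl4, an inhibitor of lipoprotein lipase, had 32.8, 29.2, 21.7, 30.3 and 31.4 CPM in rHCI hearts and 48.1, 25.9, 37.6, 23.3 and 25.3 CPM in PBS hearts, against 25.4, 4.98, 5.27, 5.28 and 13.7 CPM in sham hearts. Its level was high in the same pair of sham hearts and low in the other three, and Sham 16 lay within the range of the infarcted hearts. These values are given side by side without a test.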
